A study of Homo sapiens with 24 samples.

Results

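The genes described here are the nuclear tRNA genes for arginine, lysine and histidine, the 3 amino acids with basic side chains. They were chosen by name and class: rows of the small RNA table off the mitochondrial chromosome, of class tRNA, whose first name was an arginine, lysine or histidine tRNA. This gave 69 genes of 175946 features in the table (28 arginine, 31 lysine and 10 histidine), and the window of class Normal on each of the same 69 rows was taken from the ATAC table. The cells were HEK293, a human embryonic kidney line, of wild-type genotype per the labels. They overexpressed eGFP (the control, called GFP here), LMNA, LMNB1 or LMNB2, the genes of the A-type and B-type lamins that form the meshwork under the inner nuclear membrane. Each of the 4 groups had 3 replicates per assay, in 12 small RNA libraries and 12 ATAC libraries. RNA was prepared with a kit that enriches small RNAs. The ATAC libraries, which read how open chromatin is, came from a separate harvest of cells, so a small RNA library and an ATAC library of the same number are different cells. How each gene was overexpressed, and how far the lamin levels rose, was not analysed here. Nothing in the labels says that replicates were separate cultures, so the p-values measure the spread between these samples, which may be technical.

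A nuclear tRNA gene is transcribed by RNA polymerase III from promoter elements inside the gene. The precursor is trimmed at both ends, spliced where it has an intron, and charged with its amino acid before it reads codons at the ribosome. Genes with the same anticodon form an isoacceptor family, and many families hold several identical copies spread over the genome. Mature tRNAs can also be cut into fragments that small RNA libraries capture. A read count on a tRNA gene therefore adds up precursor, mature tRNA and fragments, which these tables do not separate. Lamins bind chromatin at the nuclear edge, and the design asks how each lamin relates to small RNA levels and to chromatin opening.

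The names in the deposited tables were shared between copies (42 distinct names for 69 genes) and did not follow the current gene symbols. Genes are therefore named by the RefSeq symbol (GRCh38.p14) of the tRNA gene that lay at exactly the deposited interval less 25 bp on each side, in which TRR, TRK and TRH stand for arginine, lysine and histidine. This match was found for 62 genes, and the other 7 keep their table name, such as tRNA-Lys-CTT-10-1. Of the 69 genes, 18 lay on chromosome 6, 28 lay within the span of a protein-coding or lncRNA gene, and 35 overlapped another feature of the table, with which they can share reads. A total of 31 genes shared their full RNAcentral entry, the mark of an identical mature RNA, with another member. TRR-TCT3-1 and TRR-TCT3-2 are not among them, but have an identifier in common beside others that differ. How multi-mapping reads were counted is not given in the sources used here, so values of such copies are uncertain and are not independent of each other.

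Small RNA libraries held a total of 132.5 to 195.1 M counts and ATAC libraries 156 to 290.2 M. The 69 genes took 0.0893 to 0.202% of the counts in small RNA and 0.0147 to 0.0202% in ATAC. After the filter on low counts, 67 of the 69 genes were tested in small RNA (not TRK-CTT9-1 or tRNA-Lys-TTT-11-1) and 66 in ATAC (not TRK-CTT9-1, tRNA-His-GTG-2-1 or tRNA-Lys-TTT-14-1), out of 33893 and 163786 features tested. MicroRNA markers of liver, blood, muscle, pancreas and neuron had rows for 14 of 14 names (19 rows), with a summed level of 0.404 to 0.963 CPM (counts scaled to the size of the library) in GFP, 0.324 to 0.545 in LMNA, 0.429 to 0.603 in LMNB1 and 0.224 to 0.384 in LMNB2. The pancreas marker MIR375, at 0.173 to 0.896 CPM, made up most of this sum in every library. Of those 19 rows, 3 held no count in any library, and 17, these included, held none in some library. The mitochondrial share of ATAC counts was 39.9 to 47.5% in GFP, 39.4 to 44.1% in LMNA, 32.8 to 34.1% in LMNB1 and 24.5 to 30.7% in LMNB2. Its part in the ATAC results was not tested.

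The 3 GFP libraries spread widely in small RNA at these genes, with replicate 3 high at many of them. The CPM of GFP replicate 3 exceeded the mean of GFP replicates 1 and 2 by a median ratio of 1.91 (range 0.491 to 9.91) over the 67 tested genes, against 0.946 over all features and 1.498 over nuclear tRNA genes of other amino acids. The ratio was above 2 for 32 of the 67 genes: 9 of 10 His-GTG genes, 12 of 15 Lys-CTT genes, 9 of 14 Lys-TTT genes and 2 of 5 Arg-CCT genes, and none of the other 23 arginine genes. Over all features 11.1% had a ratio above 2, and over other nuclear tRNA genes 34.1%. GFP replicate 3 was the highest of the 12 libraries in 29 of the 67 genes, among them all 10 histidine genes. GFP replicate 1 or 2 was the lowest in 43 of the 67. The genes took 0.0893% and 0.0961% of counts in GFP replicates 1 and 2 and 0.202% in replicate 3. In the lamin libraries they took 0.142 to 0.171%. LMNA replicate 3 was above 2 times the mean of the other LMNA replicates at 4 tested lysine genes (TRK-CTT2-3, TRK-CTT2-4, TRK-CTT3-1 and TRK-TTT5-1). The clearest case was TRK-CTT3-1, a Lys-CTT gene at chr16:3157380-3157502 (deposited interval, GRCh38) that overlaps 3 other features, whose CPM was 1.47, 1.44 and 13.4 with GFP, 2.45, 1.95 and 15.2 with LMNA, 1.67, 1.90 and 1.95 with LMNB1 and 1.39, 1.29 and 1.21 with LMNB2. Comparisons that rest on GFP replicate 3 are therefore given with and without it. Without it, the GFP mean rests on the 2 libraries that were often lowest, so neither fit is taken as the better.

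**Figure D1:**
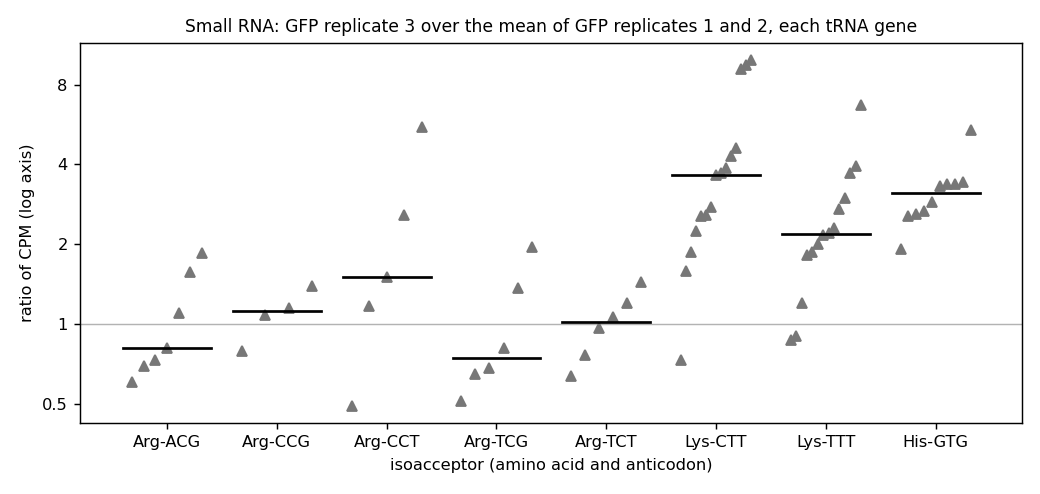
Ratio of small RNA CPM in GFP replicate 3 to the mean of GFP replicates 1 and 2 (log axis), 1 triangle per tested gene, grouped by isoacceptor, with the median of each group as a black line. The His-GTG, Lys-CTT and Lys-TTT genes lie mostly above 2, whereas most Arg-ACG, Arg-CCG, Arg-TCG and Arg-TCT genes lie near 1.

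Levels differed widely between genes of 1 family. Per kilobase of deposited interval, the mean small RNA level over the 12 libraries ran from 0.790 to 2318 CPM over the 67 tested genes. The highest was TRR-CCT2-1, an Arg-CCT gene within KCTD2 at chr17:75034406-75034528, followed by TRR-TCT1-1 (1184 CPM per kb) and TRR-ACG1-1 (1177). The last 2 did not differ beyond their spread: their CPM over the 12 libraries ran from 93.8 to 192 and from 82.8 to 187. TRR-CCT2-1 itself held 224, 231 and 341 CPM with GFP, 264, 347 and 319 with LMNA, 298, 333 and 326 with LMNB1 and 224, 264 and 249 with LMNB2. Its groups overlapped in every pairing but LMNB2 against LMNB1. Among lysine genes TRK-TTT7-1, which reads AAA and AAG codons, was highest with 941 CPM per kb, and among Lys-CTT genes tRNA-Lys-CTT-10-1 with 86.7. The highest Arg-CCG and Arg-TCG genes were TRR-CCG2-1 with 35.4 and TRR-TCG1-1 with 184 CPM per kb. All 9 genes of the TRH-GTG1 group were close to each other, with TRH-GTG1-5 highest at 236 CPM per kb. In ATAC the highest mean level per kb of window was at TRR-TCG1-1 (31.8 CPM per kb), TRR-ACG1-2 (29.0) and TRR-TCG3-1 (27.7), and the highest lysine and histidine genes were TRK-TTT7-1 (17.7) and TRH-GTG1-8 (12.6).

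Identical copies did not rank alike in the 2 assays. The 9 TRH-GTG1 copies had mean small RNA levels of 16.7 to 28.8 CPM, a 1.73-fold range, beside ATAC levels of 0.0601 to 4.69 CPM, a 78.1-fold range. The copy with the lowest ATAC level, TRH-GTG1-2 at chr1:147073200-147073321, had a small RNA level of 16.7 CPM. In either assay, reads that match several copies may be counted at another copy or lost. The small RNA levels of the 3 TRR-ACG1 copies spanned 1.84 to 145 CPM, a 78.8-fold range, and TRR-ACG1-1 carried the highest value with the lowest ATAC level of the 3 (1.99 CPM), while TRR-ACG1-2 carried the lowest small RNA level with the highest ATAC level (10.8 CPM). TRR-ACG1-1 overlapped 5 other features of the table. The copies of TRK-CTT2, TRK-TTT3, TRR-ACG2, TRR-CCG1 and TRK-CTT1 differed by 1.73-fold to 4.26-fold in small RNA and by 2.32-fold to 9.88-fold in ATAC. Across the 65 genes tested in both assays, mean levels on a log2 scale had a Pearson r of 0.548 and Spearman's rho was 0.386. These are descriptions across genes, which share libraries and, for copies, reads.

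**Figure D2:**
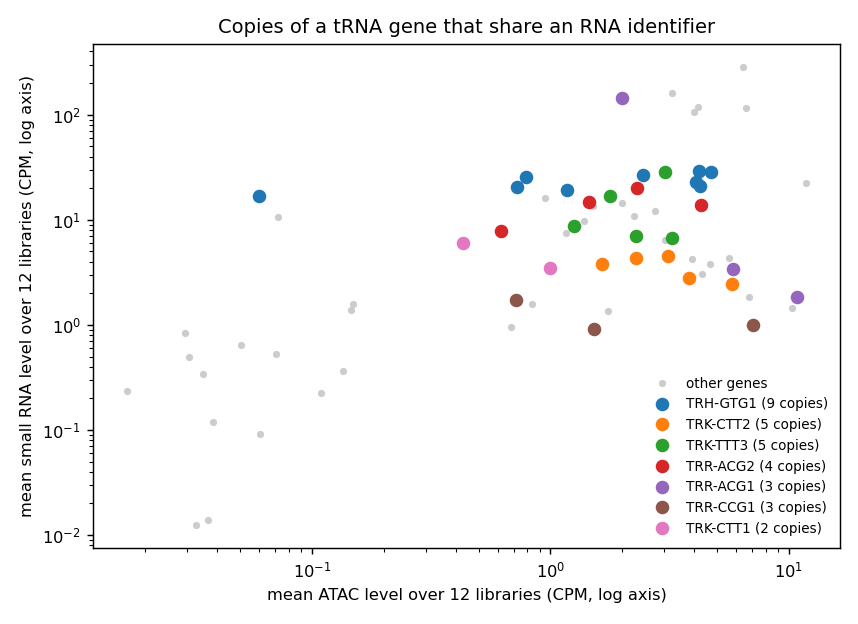
Mean small RNA CPM against mean ATAC CPM over the 12 libraries of each assay (both log axes), 1 point per gene, with the 7 families of copies that share a full RNAcentral entry in colour. The 9 TRH-GTG1 copies lie in a flat band of small RNA level across a 78.1-fold range of ATAC level, and TRR-ACG1-1 lies far above its other copies.

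In small RNA of LMNB2 against LMNA, all 28 arginine genes and 26 of 29 tested lysine genes had fold changes below 0, while 8 of 10 histidine genes and 3 Lys-CTT genes (tRNA-Lys-CTT-10-1, TRK-CTT8-1 and tRNA-Lys-CTT-11-1) had fold changes above 0. Few of them passed the test. By edgeR's quasi-likelihood test, adjusted by Benjamini-Hochberg over all features, 3 of 67 genes had an adjusted p under 0.05 in LMNB2 against LMNA, all lower, beside 0.268% of all features called lower and 2.01% called in either direction. They were TRK-TTT3-1, TRK-TTT3-3 and TRR-TCG4-1. The median log2 fold change of the 67 genes was −0.46, against −0.01 over all features, and 56 were on the lower side and 11 above 0, beside 49.4% of all features above 0. Unadjusted p was under 0.05 for 19 genes, beside 16.4% of all features. The 3 LMNB2 libraries lay below all 3 LMNA libraries for 45 genes (67.2% of the 67), beside 13.5% of all features, and above them for 4 genes (5.97%, beside 14.6%). By isoacceptor the median was −0.82 for Lys-TTT, −0.52 for Lys-CTT, −0.48 for Arg-CCG and Arg-CCT, −0.46 for Arg-TCG, −0.42 for Arg-TCT and −0.37 for Arg-ACG, and 0.11 for His-GTG. The 430 nuclear tRNA genes of other amino acids had a median of −0.41 over 396 tested, with 4 called lower. In these bulk samples, fewer cells making an RNA and less RNA per cell cannot be told apart.

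**Figure D3:**
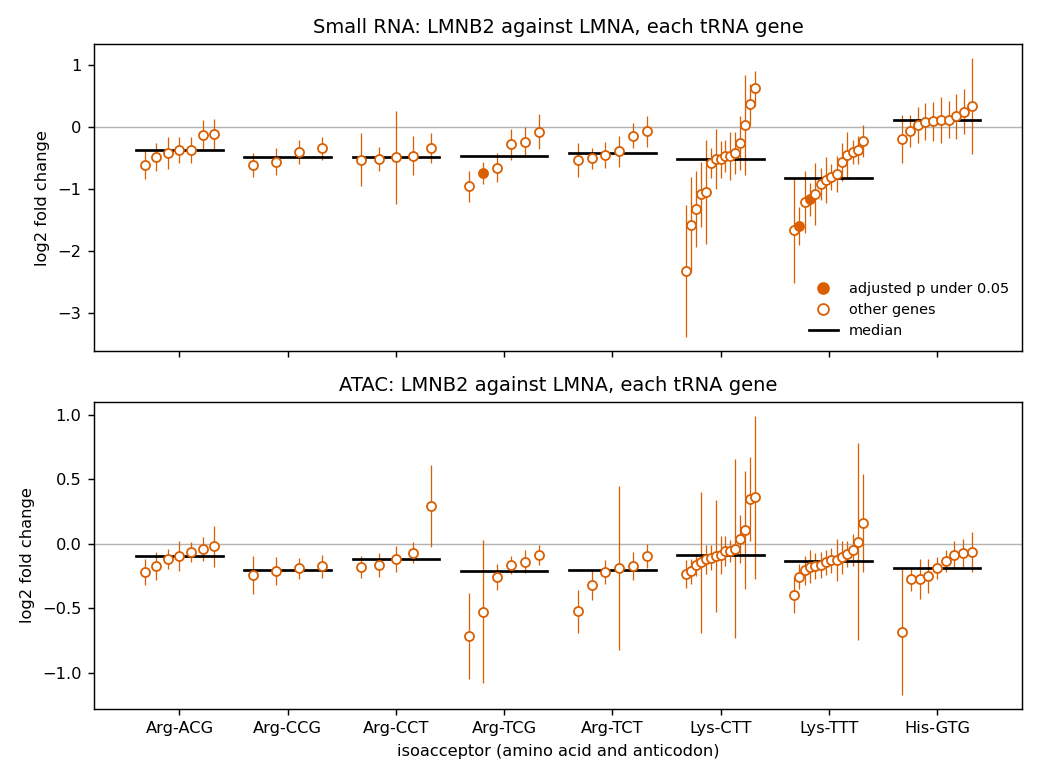
Log2 fold change of LMNB2 against LMNA for each tested gene by isoacceptor, in small RNA (top) and ATAC (bottom), with the standard error as a bar and the median of each isoacceptor as a black line. Filled points have an adjusted p under 0.05; the Lys-TTT median is −0.82 in small RNA and −0.13 in ATAC, and no gene is called in ATAC.

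The number of calls depended on the libraries in the fit. Without GFP replicate 3 it was 20 (19 of them lower), beside 5.68% of all features, and with only the 6 libraries of both groups it was 24 (23 lower), beside 10.5% of all features. Without GFP replicate 1 it was 5, beside 2.14%, and without GFP replicate 2 it was 7, beside 1.52%. It fell to 1 without LMNA replicate 1, LMNA replicate 2 or any 1 LMNB1 library, and to 0 without LMNA replicate 3 or any 1 LMNB2 library. Scaling by total counts gave no call, with a median of −0.23 beside a median of all features of 0.20. The gap between the genes and all features was then −0.43, against −0.45 with the scaling used here.

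Lys-TTT genes make the tRNA with anticodon UUU, whose lysine isoacceptor is also known as the primer that HIV-1 uses for reverse transcription. All 14 tested Lys-TTT genes had every LMNB2 library below every LMNA library, beside 13.5% of all features. Of these genes, 5 are TRK-TTT3 copies that share an RNAcentral entry and are not independent. TRK-TTT3-1 lies at chr1:204506502-204506624 beside its copy TRK-TTT3-2 on the other strand, and overlaps 1 other feature of the table. Its small RNA level was 21.4, 16.6 and 34.6 CPM with GFP, 54.4, 28.6 and 67.8 with LMNA, 20.8, 23.4 and 22.2 with LMNB1 and 15.1, 19.2 and 15.6 with LMNB2. The LMNA libraries varied most and included the highest values of the 12, although LMNA replicate 2 was below GFP replicate 3, and every LMNB2 library was below every LMNA and LMNB1 library. LMNB2 against LMNA gave −1.60 ± 0.31 (log2, SE; adjusted p 0.0147). It was −1.33 without LMNA replicate 3, where the adjusted p was 0.0620, and without LMNA replicate 1 or any 1 LMNB2 library the adjusted p was 0.0673 to 0.0981. The joint test of the 4 groups gave 0.0273. Over the planned and added alternatives the adjusted p of LMNB2 against LMNA ranged up to 0.117.

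Its copy TRK-TTT3-3, at chr6:28951004-28951126, held 7.95, 7.48 and 14.4 CPM with GFP, 8.04, 11.4 and 15.4 with LMNA, 7.55, 7.58 and 9.17 with LMNB1 and 5.40, 4.89 and 5.19 with LMNB2. The LMNB2 libraries were below all 9 others. On the log2 scale the difference from LMNA was −1.17 ± 0.27 (adjusted p 0.0337) and from GFP −0.95 ± 0.27 (adjusted p 0.0666). When GFP replicate 3, the highest GFP value, was left out, the difference from GFP was −0.53 (adjusted p 0.137). Without LMNA replicate 2, LMNA replicate 3 or any 1 LMNB1 or LMNB2 library, the adjusted p against LMNA was 0.0543 to 0.161. The copies TRK-TTT3-2, TRK-TTT3-4 and TRK-TTT3-5 had log2 fold changes of −0.75, −0.80 and −0.84 against LMNA, with adjusted p of 0.204, 0.0552 and 0.277. TRK-TTT2-1 on chromosome 11 held 16.7, 13.3 and 14.5 CPM in LMNA and 7.01, 8.49 and 8.01 in LMNB2, a log2 difference of −0.92 ± 0.26 with an adjusted p of 0.0736. TRK-TTT6-1 was −1.20 ± 0.50 and TRK-TTT5-1 −1.66 ± 0.84, with adjusted p of 0.264 and 0.375, and both had their highest LMNA value in replicate 3.

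Of the 15 tested Lys-CTT genes, which read AAG, 10 had LMNB2 below LMNA in every library, beside 13.5% of all features. None was called, beside 2.01% of all features. Without GFP replicate 3, 6 were called, beside 2049 of 36091 features. TRK-CTT2-1, TRK-CTT2-3, TRK-CTT2-4, TRK-CTT5-1 and TRK-CTT7-1 were lower and tRNA-Lys-CTT-10-1 higher, with adjusted p of 0.0187 to 0.0479. The TRK-CTT2 genes among them share an RNAcentral entry, so their values are not independent. The largest fitted difference, −2.32 ± 1.07 at TRK-CTT3-1, had an adjusted p of 0.327 and came with the single high LMNA library given above. tRNA-Lys-CTT-10-1 went the other way. Its small RNA level was 4.60, 7.95 and 14.03 CPM with GFP, 10.97, 8.51 and 8.61 with LMNA, 9.45, 9.92 and 10.5 with LMNB1 and 14.2, 14.5 and 14.7 with LMNB2. The LMNB2 libraries were the highest 3 of the 12, and the log2 difference was 0.63 ± 0.29 against LMNA and 0.70 ± 0.29 against GFP, with adjusted p of 0.288 and 0.187. Both passed without GFP replicate 3, with 0.61 against LMNA (adjusted p 0.0416) and 1.25 against GFP (adjusted p 0.00164).

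All 28 arginine genes had a log2 fold change below 0 in LMNB2 against LMNA (−0.06 to −0.95). In 21 the groups did not overlap, beside 13.5% of all features on the lower side. TRR-TCG4-1, an Arg-TCG gene that reads the CGA codon, lies at chr6:26299652-26299774 and overlaps 1 other feature. Its small RNA level was low: 1.61, 1.38 and 1.21 CPM with GFP, 1.66, 1.84 and 2.02 with LMNA, 1.66, 2.29 and 1.90 with LMNB1 and 1.01, 1.05 and 1.24 with LMNB2, on 164 to 374 counts per library. The LMNB2 values were below every LMNA and LMNB1 value and overlapped GFP by 1 library. The log2 fold change was −0.74 ± 0.18 against LMNA (adjusted p 0.0392) and −0.82 ± 0.18 against LMNB1 (adjusted p 0.0229), and the joint test gave 0.0479. Against LMNA the adjusted p was 0.0519 to 0.186 without any 1 LMNA, LMNB1 or LMNB2 library. Against LMNB1 it was 0.0712 to 0.137 without LMNB1 replicate 2, LMNB1 replicate 3 or any 1 LMNB2 library. At the most abundant gene of each arginine isoacceptor, the log2 difference of LMNB2 against LMNA was −0.33 ± 0.24 at TRR-CCT2-1, −0.10 ± 0.24 at TRR-ACG1-1, −0.06 ± 0.25 at TRR-TCT1-1, −0.28 ± 0.25 at TRR-TCG1-1 and −0.55 ± 0.21 at TRR-CCG2-1, with adjusted p of 0.204 to 0.922.

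**Figure D4:**
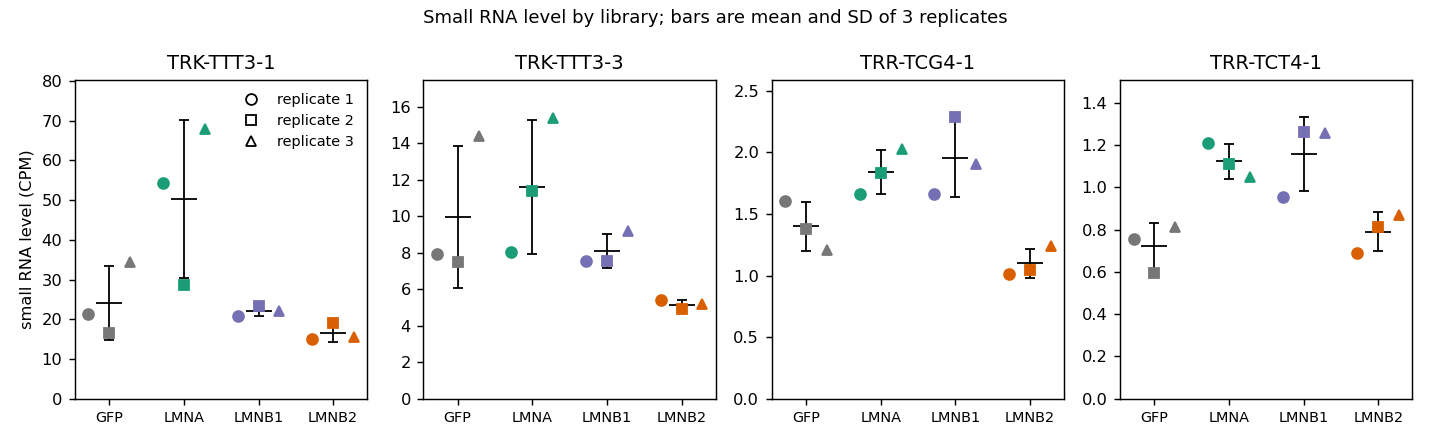
Small RNA level (CPM) in each of the 12 libraries for TRK-TTT3-1, TRK-TTT3-3, TRR-TCG4-1 and TRR-TCT4-1, with the mean and SD of the 3 replicates in black. The LMNB2 libraries lie below every LMNA library in all 4 genes, and GFP replicate 3 (grey triangle) lies above the other GFP libraries in the 2 TRK-TTT3 genes.

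The Arg-TCT family, which reads AGA, holds genes with introns. The deposited Arg-TCT intervals less their flanks were 74 to 91 bp long, and TRR-TCT4-1 was the shortest. TRR-TCT4-1 (chr1:159141586-159141709, within AIM2) is the human counterpart of a mouse arginine tRNA gene that is known for expression in the brain, where its loss leads to ribosome stalling. It was detected at 0.756, 0.595 and 0.811 CPM with GFP, 1.21, 1.11 and 1.05 with LMNA, 0.954, 1.26 and 1.26 with LMNB1 and 0.687, 0.812 and 0.867 with LMNB2. Both LMNA and LMNB1 lay above GFP and LMNB2 in every library. The log2 difference from GFP was 0.63 ± 0.17 for LMNA and 0.67 ± 0.17 for LMNB1, but with adjusted p of 0.867 and 0.703 neither passed, and the joint test gave 0.0587. Without GFP replicate 3 the difference was 0.79 for LMNA (adjusted p 0.0302) and 0.83 for LMNB1 (adjusted p 0.0633). The deposited name tRNA-Arg-TCT-4-1 belonged to another gene, TRR-TCT2-1 in HES7 on chromosome 17, with 12.2 CPM on average and −0.45 ± 0.21 in LMNB2 against LMNA (adjusted p 0.287). Among other Arg-TCT genes, TRR-TCT3-2 held 11.1, 8.23 and 10.3 CPM in GFP and 11.4 to 16.6 in all 9 lamin libraries, above GFP throughout. Of all features, 4.16%, 4.76% and 12.1% lay apart on that side for LMNA, LMNB1 and LMNB2. TRR-TCT3-2 was not called against GFP, and without GFP replicate 3 the adjusted p were 0.0763, 0.163 and 0.0835. TRR-TCT3-2 has an RNAcentral identifier in common with TRR-TCT3-1, so reads may be shared between them.

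Histidine has 1 anticodon, and its tRNA carries an extra guanosine at its first position that is added after transcription. None of the 10 histidine genes was called in small RNA by edgeR in any pairwise contrast or in the joint test, where the lowest adjusted p was 0.766, and none had an unadjusted p under 0.05 there. When GFP replicate 3 was left out, 6 were called higher in LMNB2 against GFP (adjusted p 0.00662 at TRH-GTG1-2 to 0.0393 at TRH-GTG1-5) and 2 in LMNA against GFP (TRH-GTG1-3 with 0.0484 and TRH-GTG1-9 with 0.0365). Over all features 2101 and 304 of 36091 were called in these comparisons. The called histidine genes are all TRH-GTG1 copies that share an RNAcentral entry, so their values are not independent. The summed level of the 10 genes was 151, 133 and 399 CPM with GFP, 203, 215 and 198 with LMNA, 181, 196 and 201 with LMNB1 and 216, 214 and 210 with LMNB2. The 9 lamin libraries were close together and fell between the GFP replicates. TRH-GTG1-4 shows the same pattern as a single gene, with 12.3, 13.1 and 42.2 CPM in GFP and 16.9 to 21.7 in the lamin libraries. TRH-GTG1-2 held 10.3, 10.5 and 35.02 in GFP. The difference between LMNB2 and LMNA at TRH-GTG1-5 was 0.04 ± 0.30, and at TRH-GTG1-8 −0.06 ± 0.25.

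**Figure D5:**
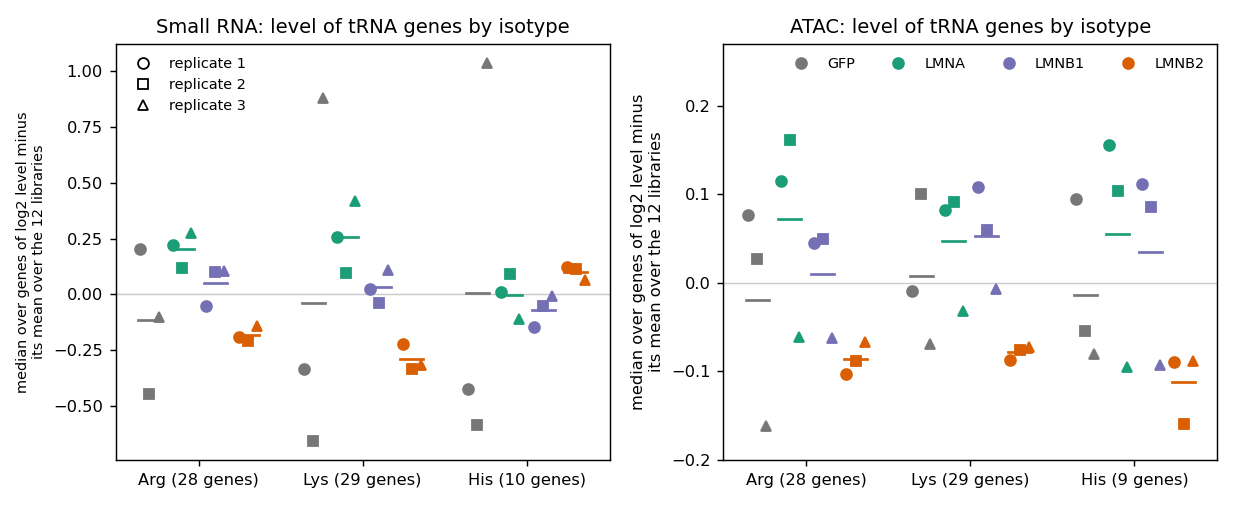
Level of the tested arginine, lysine and histidine genes in each library, as the median over genes of log2(CPM + 0.1) less its mean over the 12 libraries, in small RNA (left) and ATAC (right, with a narrower axis). Lines are means of 3 replicates; GFP replicate 3 stands at 0.88 for lysine and 1.04 for histidine in small RNA, and the 3 LMNB2 libraries lie below the 3 LMNA libraries for arginine and lysine in both assays.

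TRR-TCG4-1 was also lower with LMNB2 than with LMNB1, while all 10 histidine genes had fold changes above 0 there that did not pass the test. In LMNB1 against LMNA no gene was called by edgeR's quasi-likelihood test, beside 0.0118% of all features, and DESeq2 also called none. Unadjusted p was under 0.05 for 3 genes, beside 5.74% of all features. The median was −0.13 (all features 0.01), and it turned to 0.01 with scaling by total counts, where the median of all features was 0.15. A total of 14 genes were above 0, beside 51% of all features. Groups did not overlap for 20 genes on the lower side (29.9%, beside 7.51% of all features) and for 0 on the higher side (beside 6.07%). At TRK-TTT3-1 the log2 difference was −1.18 ± 0.30 (adjusted p 0.832). In LMNB2 against LMNB1, TRR-TCG4-1 was called lower, 1 of 67 genes beside 0.366% of all features called lower, 1.82% called higher and 2.19% in either direction. The median was −0.24 (all features −0.01), 16 genes were above 0 (beside 49.2%), and 8 had an unadjusted p under 0.05 (beside 16% of all features). Other nuclear tRNA genes, on the scale of the plot of isotype levels, had a mean level of 0.095 with LMNB1 and −0.23 with LMNB2. For the 67 genes it was −0.0003 and −0.17. Groups did not overlap for 27 genes on the lower side (40.3%, beside 14.1% of all features) and 9 on the higher side (13.4%, beside 15.6%), of which 7 were histidine genes. With only the 6 libraries of both groups 25 genes were called, beside 15.5% of all features, and 8 when GFP replicate 3 was left out, beside 6% of all features. Leaving out GFP replicate 1 gave 2, beside 2.24%, and leaving out LMNB1 replicate 2, LMNB1 replicate 3 or any 1 LMNB2 library gave 0. In the joint test of the 4 groups 2 genes were called, TRK-TTT3-1 and TRR-TCG4-1, beside 1.68% of all features, and 13 had an unadjusted p under 0.05, beside 15.9%. Leaving out GFP replicate 1, 2 or 3 gave 6, 3 and 29 calls, beside 999 of 37468, 553 of 37379 and 3254 of 36091 features. Leaving out LMNA replicate 2 gave 1, beside 411 of 37433, and each of the other 8 libraries gave 0.

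Against GFP, no lamin gave a call in the small RNA of these genes. The share of all features called was 0% for LMNA, 0.0384% for LMNB1 and 2.66% for LMNB2 (1.91% higher and 0.752% lower). By edgeR 13, 5 and 9 genes had an unadjusted p under 0.05, beside 5.46%, 5.51% and 19.9% of all features, and DESeq2 called 2, 1 and 4 genes, beside 0.207%, 0.0620% and 3.52% of all features. The 3 comparisons share the GFP libraries. With LMNA the median log2 fold change was 0.19 (all features −0.05; −0.02 without GFP replicate 2), and 46 genes were on the higher side, beside 43.1% of all features. LMNA did not overlap GFP for 10 genes on that side (14.9%, beside 4.16% of all features) and for 0 on the lower side (beside 5.34%). TRK-TTT9-1, a Lys-TTT gene at chr6:27576042-27576164, had the smallest p. It held 13.3, 10.2 and 10.6 CPM with GFP, 19.4, 19.7 and 21.4 with LMNA, 16.4, 17.6 and 17.9 with LMNB1 and 14.2, 16.5 and 15.3 with LMNB2, so that every lamin library was above every GFP library. Its log2 differences from GFP were 0.83 ± 0.19, 0.61 ± 0.19 and 0.43 ± 0.19 for LMNA, LMNB1 and LMNB2, with adjusted p of 0.701, 0.777 and 0.221. With LMNB1 the median was −0.05, equal to that of all features, and turned to 0.02 with scaling by total counts. A total of 32 genes were above 0, beside 44.1% of all features, and 5 did not overlap on the higher side (7.46%, beside 4.76%) and 0 on the lower side (beside 5.29%). With LMNB2 the median was −0.21 (all features −0.04) and 14 genes were above 0, beside 46.8%. Groups did not overlap for 5 genes on the lower side (7.46%, beside 10.2%) and 4 on the higher side (5.97%, beside 12.1%).

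Without GFP replicate 3 these comparisons changed. The medians became 0.62 for LMNA, 0.44 for LMNB1 and 0.20 for LMNB2, so the signs for LMNB1 (−0.05 with all libraries) and LMNB2 (−0.21) both turned. A total of 15, 2 and 9 genes were then called, beside 0.842%, 0.0997% and 5.82% of all features. All 15 calls for LMNA were higher, 11 of them lysine genes, with log2 differences of 0.70 at TRH-GTG1-3 to 1.78 at TRK-CTT7-1. TRK-TTT2-1 was 1.38 for LMNA (adjusted p 0.00576) and 1.14 for LMNB1 (adjusted p 0.00786). For LMNB2, 8 of the 9 calls were higher, 6 of them histidine genes with log2 differences of 0.61 to 0.85, and TRR-CCG2-1 was lower (−0.64, adjusted p 0.0485). The GFP mean then rests on 2 libraries, and GFP replicates 1 and 2 themselves differed, with median levels of 0.20 and −0.45 for arginine genes on the log2 scale of the plot of isotype levels. Leaving out GFP replicate 1 in place of replicate 3 gave 5 calls for LMNB2, beside 3.71% of all features, and leaving out GFP replicate 2 gave 1, beside 0.845%.

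In ATAC, with TMM scaling, edgeR's quasi-likelihood test called 0 of 66 genes in each of the 6 pairwise contrasts, as did DESeq2. The share of all windows called was 0.000611% for LMNA, 0.00305% for LMNB1 and 0.00244% for LMNB2 against GFP, 0.223% for LMNB1 against LMNA, and 0.00305% for LMNB2 against either other lamin. The joint test called 0, beside 0.0421%, and leaving out LMNB1 replicate 3 gave 1 call. The genes with an unadjusted p under 0.05 numbered 2, 1 and 6 against GFP (beside 5.19%, 4.78% and 5.72% of all windows), 1 for LMNB1 against LMNA (beside 5.37%) and 6 in the joint test (beside 5.81%). They numbered 15 for LMNB2 against LMNA, all lower (beside 7.17%), and 11 for LMNB2 against LMNB1, 10 of them lower (beside 4.98%). The medians were 0.07, 0.03 and −0.09 against GFP, −0.04 for LMNB1 against LMNA, −0.14 for LMNB2 against LMNA and −0.13 for LMNB2 against LMNB1, beside medians of all windows at 0.00 in each. The signs for LMNB1 and LMNB2 against GFP and for LMNB1 against LMNA turned under another scaling: −0.04 for LMNB1 against GFP by counts outside the mitochondrial chromosome, and 0.02 and 0.06 for the other 2 by total counts, where all windows had medians of −0.08, 0.11 and 0.10. Leaving out GFP replicate 3 also turned LMNA and LMNB1 against GFP (−0.0083 and −0.018), and leaving out LMNA replicate 2 or LMNB1 replicate 3 turned LMNB1 against LMNA (0.024 and 0.0050). In LMNB2 against LMNA, 59 of 66 genes were on the lower side (49.4% of all windows were above 0) and 11 did not overlap (16.7%, beside 8.49% of all windows). In LMNB2 against LMNB1 it was 56 (48.6% above 0) and 14 (21.2%, beside 5.24%), and against GFP 55 (49.1% above 0) and 9 (13.6%, beside 4.72%). LMNA did not overlap GFP for 5 genes on the higher side and 2 on the lower side, beside 4.81% and 4.74% of all windows. Other nuclear tRNA genes had the same median of −0.14 in LMNB2 against LMNA over 416 tested.

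TRR-TCT4-1 had the smallest joint p in ATAC (0.00786, adjusted 0.620). Its window held 0.657, 0.639 and 0.681 CPM with GFP, 0.730, 0.836 and 0.732 with LMNA, 0.902, 0.886 and 0.547 with LMNB1 and 0.517, 0.584 and 0.484 with LMNB2. The LMNB2 values lay below all GFP and LMNA values, and the LMNB1 values spread across both. The log2 fold change of LMNB2 was −0.52 ± 0.17 against LMNA and −0.55 ± 0.16 against LMNB1, beside −0.50 ± 0.17 and −0.55 ± 0.17 in small RNA. None of these 4 passed the test (adjusted p 0.517, 0.905, 0.142 and 0.110). The small RNA differences without GFP replicate 3, −0.52 and −0.56, had adjusted p of 0.0446 and 0.0301.

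TRH-GTG1-1, TRR-TCT3-2 and TRK-TTT9-1 had the next smallest joint p in ATAC. The window of TRR-TCT3-2 held 1.72, 1.85 and 1.44 CPM with GFP, 1.67, 1.74 and 1.38 with LMNA, 1.42, 1.55 and 1.57 with LMNB1 and 1.30, 1.31 and 1.20 with LMNB2, lowest in LMNB2, while its small RNA level in every LMNB2 library was above every GFP library. Neither difference was called. The log2 difference of LMNB2 from GFP was −0.31 ± 0.10 at TRH-GTG1-1 and −0.20 ± 0.08 at TRR-CCG1-3, with adjusted p of 0.822 and 0.862. The genes called in small RNA had ATAC differences between LMNB2 and LMNA of −0.25 ± 0.10 at TRK-TTT3-1, −0.11 ± 0.13 at TRK-TTT3-3 and −0.71 ± 0.33 at TRR-TCG4-1, the last on 16 to 56 counts per library. The highest log2 differences from GFP among genes of at least median ATAC level were 0.20 ± 0.08 at TRR-ACG2-1 and 0.19 ± 0.10 at TRR-ACG2-2 with LMNA, and 0.18 ± 0.10 at TRK-TTT3-2 and 0.16 ± 0.10 at TRR-ACG1-3 with LMNB1, with adjusted p of 0.942, 0.970, 0.978 and 0.978.

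The ATAC result depended on how libraries were scaled. Scaling by the counts outside the mitochondrial chromosome gave 46, 51 and 44 calls for LMNB2 against GFP, LMNA and LMNB1, all lower, with medians of −0.39, −0.43 and −0.34. All windows moved too, with medians of −0.29, −0.29 and −0.22 and 41.3%, 41.3% and 27.5% of windows called. The median of the genes less that of all windows was −0.09, −0.14 and −0.13 under that scaling, against −0.09, −0.14 and −0.12 with TMM scaling.

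Other RNAs of the pathway were set beside these genes. RPPH1, the RNA subunit of the RNase P enzyme that removes the 5′ leader of tRNA precursors, had log2 differences between LMNB2 and LMNA of −0.11 in small RNA and −0.06 in ATAC, and was not called. Of 75 tested RNAs made by RNA polymerase III that are not tRNAs, such as 7SK, Y, vault and U6 RNAs, 1 was called lower and 0 higher in LMNB2 against LMNA in small RNA, with a median of −0.41. Of all features 0.268% were called lower and 1.74% higher, with a median of −0.01. The median of the 75 RNAs was 0.41 in LMNA against GFP and −0.56 in LMNB1 against LMNA, with no calls. Over all features these medians were −0.05 and 0.01, with 0% and 0.0118% called. The 3 mitochondrial tRNAs for the same amino acids, which another polymerase transcribes, had a median of −0.22 in small RNA for LMNB2 against LMNA (lowest adjusted p 0.412) and of −0.65 in ATAC (lowest adjusted p 0.486), where the mitochondrial share of the libraries differed as given above.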

How the data were processed

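The authors deposited raw counts in 2 tables, small RNA and ATAC, with 12 libraries each. The build is GRCh38, per the submitters' processing notes. The aligner, counter, use of strand, duplicate removal and any shift of ATAC reads are not given in the sources used here, and without strand, reads of overlapping or antisense features cannot be told apart. Groups came from the sample titles. Each tRNA interval was 25 bp wider than the gene on each side, and its ATAC window a further 125 bp.

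All features of the 12 libraries of an assay entered 1 model in edgeR 4.0.16 (R 4.3.3): filterByExpr, TMM scaling, a mean per group, robust quasi-likelihood dispersions, Benjamini-Hochberg adjustment over all tested features, and a threshold of 0.05. The biological coefficient of variation was 0.227 in small RNA and 0.0850 in ATAC. Log2 fold changes used a prior count of 2, and errors are standard errors from the fit. CPM used TMM-scaled library sizes, and levels by isotype a pseudocount of 0.1 CPM. Groups were said not to overlap where all 3 libraries of 1 group lay on 1 side of all 3 of the other. The fit was first run on simulated data with 1 common dispersion for all features and libraries. That setting does not cover a library that stands apart, such as GFP replicate 3. The smallest chi-square per degree of freedom between replicates was 3.18, so no library was a repeat of another within sampling noise.

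Genes named were, by rule, the most abundant of each isoacceptor, called genes, those with the smallest joint p, those with extreme fold changes against GFP at or above median level, TRR-TCT2-1 and TRR-TCT4-1, and the highest in ATAC of each amino acid. Other genes were named after their values were seen. The members and lists were chosen with earlier results of these data known. Alternatives were DESeq2 1.42.0 as test and as scaling, total counts with and without the mitochondrial chromosome, other count filters, no lncRNA features, only the groups compared, a replicate block and leaving out each library. Leaving out GFP replicate 3 and LMNA replicate 3 together was chosen after seeing the data.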

Additional observations from a re-analysis of the deposited data

How the results depend on the processing

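The calls rest on 3 libraries a group, and most moved with the fit; the cause was not tested. With any library left out in turn, small RNA calls ranged from 0 to 15 for LMNA, 0 to 2 for LMNB1 and 0 to 9 for LMNB2 against GFP, 0 to 20 for LMNB2 against LMNA, 0 to 8 for LMNB2 against LMNB1 and 0 to 29 in the joint test. Each highest count came without GFP replicate 3, where calls over all features also rose, as given above. The medians ranged from −0.020 to 0.62, −0.27 to 0.44 and −0.43 to 0.20 against GFP, −0.22 to −0.12 for LMNB1 against LMNA, −0.51 to −0.38 for LMNB2 against LMNA and −0.27 to −0.20 for LMNB2 against LMNB1. ATAC joint calls ranged from 0 to 1. ATAC medians ranged from −0.0083 to 0.13, −0.018 to 0.087 and −0.13 to −0.048 against GFP, −0.090 to 0.024 for LMNB1 against LMNA, −0.19 to −0.096 for LMNB2 against LMNA and −0.16 to −0.11 for LMNB2 against LMNB1. Without GFP replicate 3 and LMNA replicate 3, small RNA calls were 12, 5 and 10 against GFP, beside 305, 81 and 2506 of 35452 features. The medians of the genes were 0.64, 0.44 and 0.19. In the same fit 16 genes were called for LMNB2 against LMNA, 12 for LMNB2 against LMNB1 and 30 in the joint test. All features gave 1819, 2806 and 3502 calls there.

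With no count filter, small RNA calls were 3 for LMNA and 3 for LMNB2 against GFP, beside 111 and 1745 of 150622 features. They were 2 for LMNB1 against LMNA, 9 for LMNB2 against LMNA, 2 for LMNB2 against LMNB1 and 11 in the joint test. All features gave 146, 1232, 896 and 2272 calls there. DESeq2 gave 2, 1 and 4 against GFP and 5 in the joint test, beside 70, 21, 1193 and 886 of 33893 features. With only the libraries compared, calls were 1 for LMNB1 against LMNA, 24 for LMNB2 against LMNA and 25 for LMNB2 against LMNB1. All features gave 103 of 28761, 3001 of 28716 and 4638 of 29906. Without lncRNA features the calls were 1 for LMNB2 against LMNA, 0 for LMNB2 against LMNB1 and 0 in the joint test. All remaining features gave 81, 72 and 77 of 3243. The medians of the genes were −0.023 for LMNB1 against LMNA, −0.27 for LMNB2 against LMNA and −0.16 for LMNB2 against LMNB1.

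Scaling by total counts, with or without the mitochondrial chromosome, gave 1 small RNA call for LMNB2 against GFP and 0 for LMNB2 against LMNA, LMNB2 against LMNB1 and in the joint test. Of 33893 features, total counts called 282, 317, 61 and 269 in these, and counts outside the mitochondrial chromosome 278, 300, 61 and 263. The medians of the genes were 0.012 for LMNB1 against LMNA, −0.23 for LMNB2 against LMNA and −0.16 for LMNB2 against LMNB1. In ATAC, total counts gave medians of 0.22 and 0.015 for LMNB1 and LMNB2 against GFP, 0.062 for LMNB1 against LMNA and −0.20 for LMNB2 against LMNB1. Counts outside the mitochondrial chromosome gave 46, 51 and 44 calls for LMNB2 against GFP, LMNA and LMNB1 and 46 in the joint test, with medians of −0.39, −0.43 and −0.34, and −0.045 for LMNB1 against GFP. Over all 163786 windows the calls were 67644, 67562, 44993 and 62197.

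Same-numbered replicates deviated together in some pairs only. Their r was −0.06 to 0.30 in small RNA and −0.13 to 0.34 in ATAC, over 0.1 in 4 of 18 pairs of each. Between different numbers r was −0.26 to 0.11 and −0.29 to 0.16, over 0.1 in 2 and 6 of 36 pairs. In small RNA, GFP and LMNA had r of 0.30 between their replicates 2 and 0.24 between their replicates 3. The numbers were not taken as pairs in the main fit. With a replicate block, calls were 2 for LMNB2 against LMNA, 1 for LMNB2 against LMNB1 and 1 in the joint test in small RNA, and 0 in ATAC. All features gave 566, 577 and 465 of 33893 in these small RNA comparisons.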

Other observations

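At TRK-TTT5-1, a Lys-TTT gene on chromosome 11, GFP replicate 3 and LMNA replicate 3 held 21.7 and 25.1 CPM in small RNA, beside 2.18 to 6.48 CPM in the other 10 libraries. The ATAC window of the same gene held 1.12 and 1.09 CPM in the ATAC libraries of the same names, beside 0.948 to 1.44 CPM in the other 10. In ATAC, GFP replicate 3 had a median ratio to the other GFP libraries of 0.872 over the 66 tested genes, and none was above 2.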
